A study of Homo sapiens with 3 samples.

Results

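The 10 genes described here encode antiviral restriction factors and related interferon-induced proteins: MX1, MX2, IFITM1, IFITM2, IFITM3, BST2, RSAD2, TRIM5, TRIM22 and XAF1. They were chosen with earlier results of these data known. They were taken by name, as every probe set whose platform gene symbol is exactly one of these. They had 30 of the 49293 probe sets on the array and made up 10 of the 18132 genes with a probe set of their own. The cells were KYSE180, a line from a human squamous cell carcinoma of the oesophagus, grown with 10% serum and profiled on 3 expression arrays, 1 per group. In the HOTAIR vector group the cells received LZRS_HOTAIR, which expresses the long non-coding RNA HOTAIR, with the reagent Polyfect. In the HOTAIR siRNA group they received a mixture of Stealth siRNAs against HOTAIR, 100 pmol, with Lipofectamine2000. RNA was taken 48 h after transfection. The remaining array is labelled only as control. The series' design text mentions a negative control siRNA, but the labels of that array do not say whether its cells received it, a reagent alone, an empty vector or nothing. Reagent, type of nucleic acid and HOTAIR all varied together between the vector and siRNA groups and cannot be told apart here. The source name of the siRNA sample speaks of a HOTAIR cell line, while its title and cell line field name KYSE180, which was taken for all 3.

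Restriction factors are proteins that block a step of viral infection inside the cell. Most are transcribed at a low level until type I or type III interferon binds its receptor, after which a transcription factor complex that includes IRF9 binds interferon-stimulated response elements (ISREs) near the start of these genes. Interferon gamma acts at a different element, the gamma-activated site (GAS). MX1 and MX2 are dynamin-like GTPases that trap viral nucleocapsids, the IFITM proteins sit in membranes and hinder the fusion of virus with the cell, BST2 (tetherin) holds budding virions at the cell surface, RSAD2 (viperin) makes a nucleotide analogue that ends viral RNA chains, TRIM5 recognises retroviral capsids and TRIM22 is a ubiquitin ligase that limits viral transcription. XAF1 binds the apoptosis inhibitor XIAP and is itself induced by interferon.

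The letters of the ISRE core were looked up in the promoters of these genes because the 10 genes share interferon as a known inducer. RefSeq promoter windows of GRCh38.p14, each 300 bases long with 250 before and 50 after an annotated start, were at hand for 7 of the 10 genes in 11 windows. The core GAAANNGAAA, read on both strands, was present in 7 of these windows and 6 of these genes, against 3.57% of all 35116 windows and 4.38% of all 27305 genes in the table. XAF1 had no match in either of its windows, which says only that these letters are not there. Below, each match is shown with its surroundings as 30 bases along the strand of the gene, with the core in capitals. A match read on the opposite strand appears as its reverse complement.

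MX1, start 1, chr21:41420559-41420588, plus strand: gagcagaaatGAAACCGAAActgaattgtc
MX1, start 3, chr21:41431844-41431873, plus strand: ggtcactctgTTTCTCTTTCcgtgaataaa
IFITM1, upstream match, chr11:313990-314019, plus strand: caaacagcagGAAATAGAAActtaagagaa
IFITM1, match at the start, chr11:314024-314053, plus strand: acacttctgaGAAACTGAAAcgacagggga
IFITM3, upstream match, chr11:320893-320922, minus strand: caaatgccagGAAAAGGAAActgttgagaa
IFITM3, match nearer the start, chr11:320876-320905, minus strand: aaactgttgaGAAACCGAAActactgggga
BST2, upstream match, chr19:17405741-17405770, minus strand: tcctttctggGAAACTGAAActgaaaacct
BST2, overlapping match, chr19:17405735-17405764, minus strand: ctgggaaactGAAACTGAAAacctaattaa
RSAD2, start 2, chr2:6877622-6877651, plus strand: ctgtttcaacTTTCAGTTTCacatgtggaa
TRIM5, only start in the table, chr11:5685082-5685111, minus strand: atagtttatcTTTCACTTTCctgccctgag

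The matches of IFITM1 began 40 and 6 bases before its start, those of IFITM3 52 and 35 bases before, and that of TRIM5 27 bases before. Those of BST2 lay farther out, at 130 and 124 bases, and shared 4 bases with each other. The match of RSAD2 lay 145 bases before its start 2. MX1 had a match 11 bases after its start 1 and another 196 bases before its start 3. The GAS core TTCNNNGAA was present in 7.66% of all windows and in 3 of the 11 windows of these genes, with 4 matches (in MX1, IFITM1 and BST2), 3 of which overlapped an ISRE core.

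**Figure D1:**
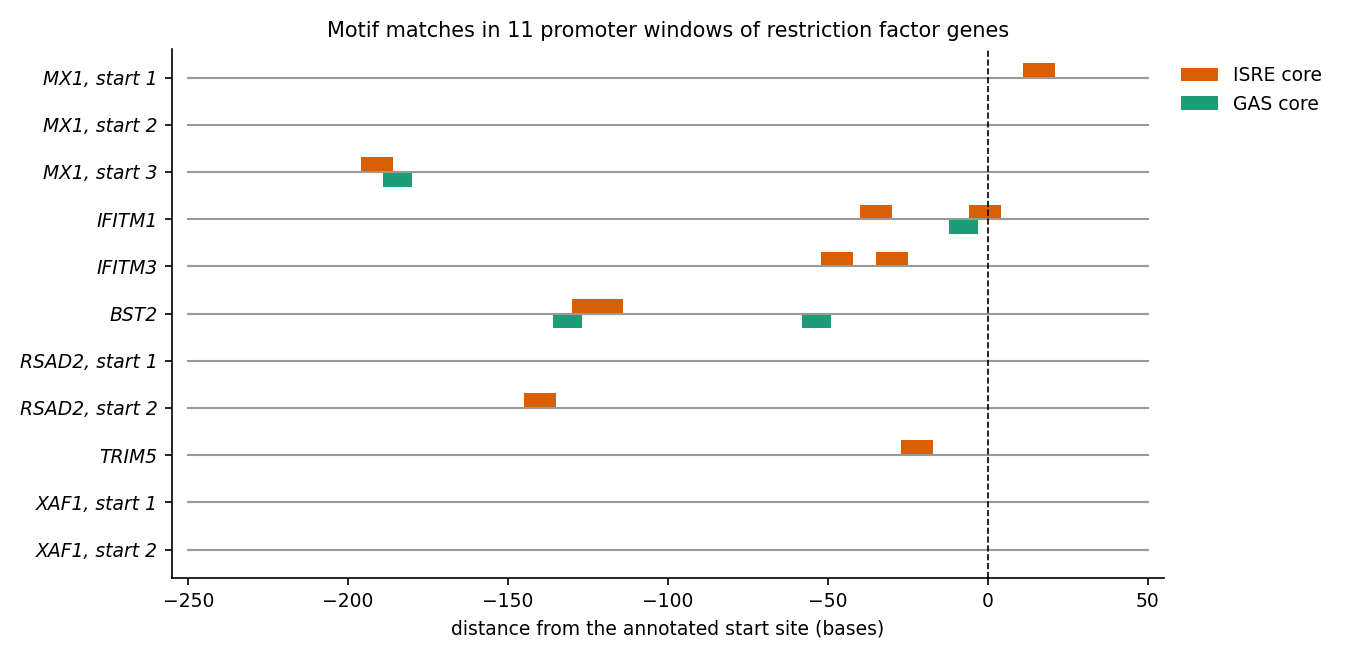
Position of ISRE core (orange) and GAS core (green) matches in 11 RefSeq promoter windows of 7 genes, as distance in bases from each annotated start (dashed line), with the direction of transcription to the right. The ISRE core matches of IFITM1, IFITM3 and TRIM5 begin within 52 bases before the start, and both windows of XAF1, 1 window of MX1 and 1 of RSAD2 hold no match.

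IFITM1 and IFITM3 are paralogues of the same cluster whose promoters can be set beside each other, here as the 250 bases before the start with ISRE cores in capitals (the second core of IFITM1 runs on past the end of its stretch). In a global alignment of these stretches, 179 of 268 columns were identical (66.8%), against 47.8% for IFITM1 with BST2.

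IFITM1, chr11:313790-314039, plus strand: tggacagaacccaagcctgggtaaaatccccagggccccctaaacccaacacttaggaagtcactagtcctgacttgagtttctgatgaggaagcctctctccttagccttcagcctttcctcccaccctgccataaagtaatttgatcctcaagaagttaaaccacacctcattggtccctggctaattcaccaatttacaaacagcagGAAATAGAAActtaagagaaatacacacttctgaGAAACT
IFITM3, chr11:320861-321110, minus strand: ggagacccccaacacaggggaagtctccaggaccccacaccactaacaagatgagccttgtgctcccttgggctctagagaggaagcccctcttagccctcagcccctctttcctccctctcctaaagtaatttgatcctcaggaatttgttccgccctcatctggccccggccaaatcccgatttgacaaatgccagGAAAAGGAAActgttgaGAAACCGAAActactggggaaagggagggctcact

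Signals are given on the log2 scale on which they were deposited, so a difference of 1 is 2-fold. A signal is called dim where it lies below the lower quartile of all probe sets on its array, which was 3.58 for the vector, 3.62 for the siRNA and 3.72 for the control array, and a difference that starts from a dim signal has an uncertain size. A gene is represented by its brightest probe set (highest mean over the 3 arrays), and genes count as kept where that mean reaches the median of all probe sets, 5.28. With 1 array per group no test was possible. The error that can be measured is the spread between probe sets of the same gene. It was pooled over the 5982 genes with several probe sets at or above that median, so it can be too small for genes below it. Its SD was 0.36 in vector minus control, 0.39 in siRNA minus control and 0.21 in vector minus siRNA. This SD holds no variation between cultures or arrays.

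Over the whole series the control array stood apart: over the 10917 kept genes, the differences from it had an SD of 0.92 in vector and 0.84 in siRNA cells, and vector minus siRNA had one of 0.45. Comparisons with control share that array and are not independent of each other. In the same way, vector minus control and vector minus siRNA share the single vector array. No probe set is annotated to HOTAIR (0 probe sets), so neither transfection could be checked by its target. Of 9 squamous markers, 7 were measured and 0 of them were dim on any array, with KRT13 at 12.71, 12.49 and 12.98 on the vector, siRNA and control arrays. KRT14, a basal keratin gene, was the 1 of the 7 past 2-fold in vector minus control, and lower (-1.16), against 2.05% of all kept genes lower. Its signals were 12.22 in vector, 13.01 in siRNA and 13.38 in control cells. KRT5, also a basal keratin gene, was at -0.92 in vector minus control, or -1.10 with the mean over its probe sets. The part of KRT14 and KRT5 in the results was not tested. Of 7 leukocyte markers measured, 3 were dim on every array, among them PTPRC, while CD68 (6.60 in vector, 6.04 in siRNA and 7.49 in control cells) and CSF1R (5.34, 5.23 and 5.70) were kept and not dim. Their summed log2 signals were 28.8 in vector, 28.0 in siRNA and 31.0 in control cells, so the sum in vector cells was below control and above siRNA cells. The sums for 7 fibroblast markers were 25.6, 26.1 and 26.8 and those for 4 endothelial markers 18.2, 18.1 and 19.2 in the same order, and the part of these markers in the results was not tested.

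The first comparison set HOTAIR vector cells against control cells. Most of the genes were higher in vector cells, with MX1, RSAD2, XAF1 and 4 of 6 TRIM22 probe sets furthest apart, IFITM1, IFITM3 and TRIM5 past 2-fold by less, and IFITM2 and BST2 higher by less than 2-fold. Of the 30 probe sets, 16 were at least 2-fold higher, in 8 of the 10 genes, and 0 were lower, against 9.91% higher and 1.1% lower among all probe sets. Of the 7 genes kept, 4 were at least 2-fold higher (MX1, IFITM1, IFITM3 and TRIM5) and 0 lower, against 15.2% and 2.05% of all kept genes. The median difference was 1.06 over the 7 and -0.18 over all kept genes. RSAD2, XAF1 and MX2 were below the filter, and with them 7 of the 10 genes were at least 2-fold higher, against 10.1% of all genes. The vector array held the highest signal in 29 of the 30 probe sets. The share of all probe sets with this order was not counted. Probe sets of the same gene are also not independent, so the 29 stand for at most 10 genes.

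**Figure D2:**
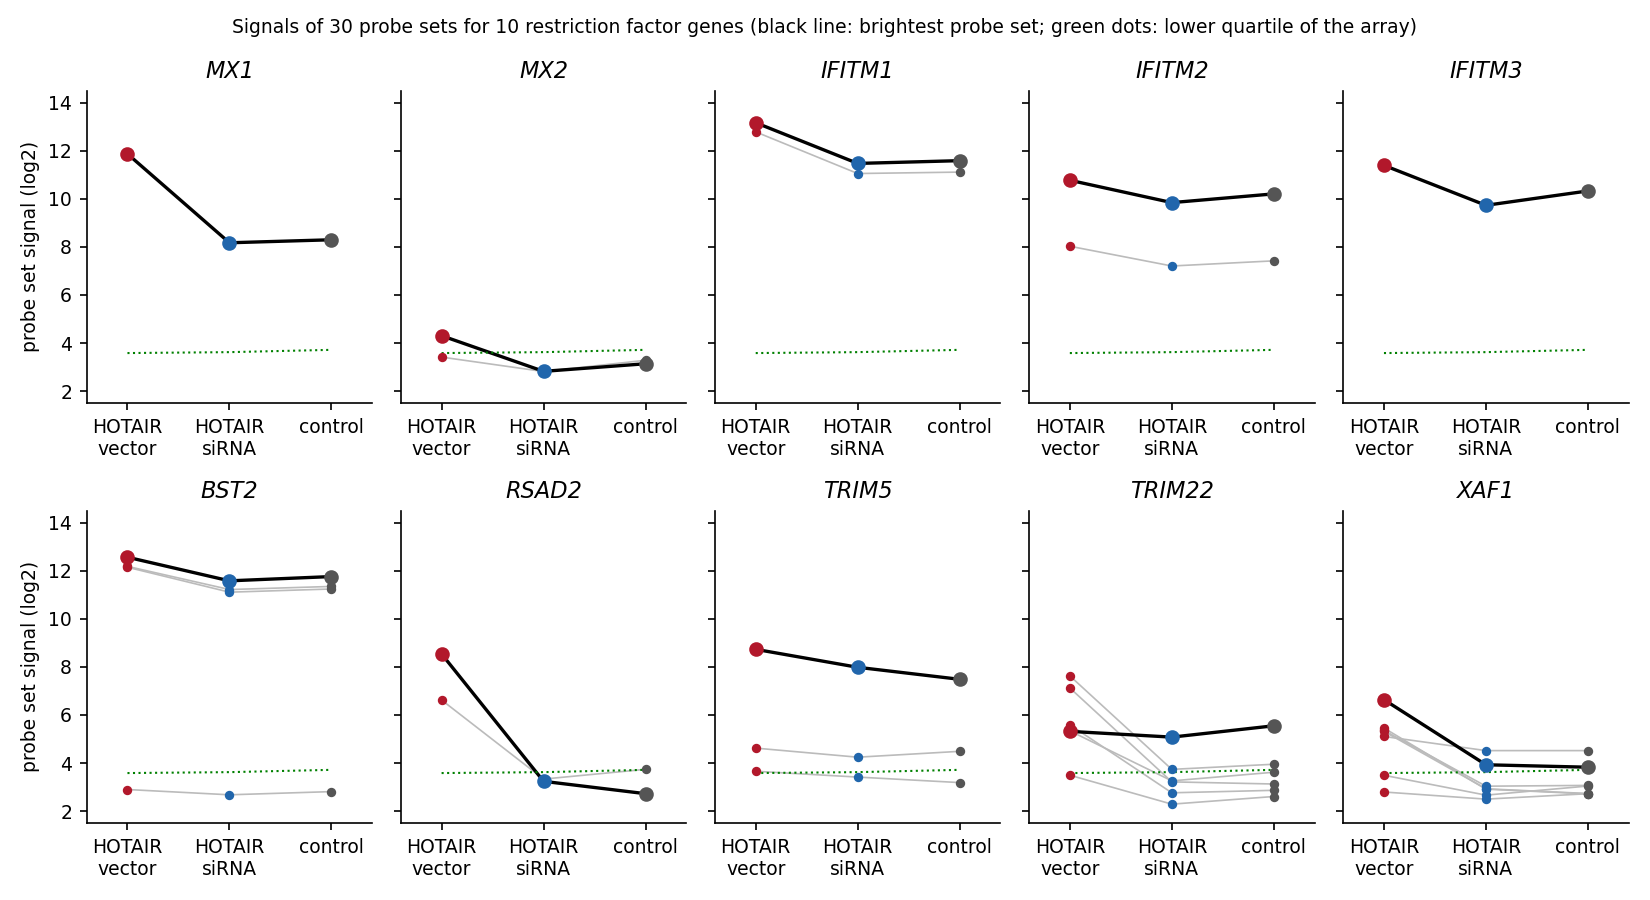
Log2 signal of all 30 probe sets of the 10 genes on the vector (red), siRNA (blue) and control (grey) arrays, with 1 array per group and each line a probe set. The black line is the brightest probe set and the dotted line the lower quartile of each array; MX1 is at 11.87 on the vector array, 8.17 on the siRNA array and 8.29 on the control array, while the brightest TRIM22 probe set is nearly level.

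MX1, on a single probe set, had signals of 11.87 in vector, 8.17 in siRNA and 8.29 in control cells. It was thus high on the vector array alone and differed there from control by 3.57, or 11.9-fold. Among the 10917 kept genes this was the 40th highest difference. MX2, its neighbour and paralogue on chromosome 21, had 4.31 in vector, 2.82 in siRNA and 3.14 in control cells on its brighter probe set. The siRNA and control signals were dim and the vector signal was just above the lower quartile, so the difference from control of 1.17 has no firm size. The other MX2 probe set was dim on all 3 arrays, at 3.42, 2.82 and 3.28.

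The IFITM genes lie in a cluster on chromosome 11 and were bright on all 3 arrays. IFITM1 had signals of 13.16 in vector, 11.47 in siRNA and 11.58 in control cells on its brightest probe set, and 12.78, 11.05 and 11.11 on the other. Both probe sets placed the vector array highest, with differences from control of 1.58 and 1.67, or 2.99-fold for the first. IFITM3 had 11.39 in vector, 9.73 in siRNA and 10.32 in control cells, a difference of 1.06 from control (2.09-fold). IFITM2 had 10.77 in vector, 9.84 in siRNA and 10.20 in control cells, and its second probe set had 8.02, 7.20 and 7.42. Its vector signals were the highest as well, but the differences from control, 0.57 and 0.61, stayed under 2-fold. Both probe sets of IFITM2, the single one of IFITM3 and the brightest one of IFITM1 have names ending in _x_at, which marks probes that can bind related transcripts. The brightest probe sets of RSAD2 and TRIM5 carry the same ending. The part of shared binding in the differences was not tested.

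BST2 was also bright, with 12.56 in vector, 11.58 in siRNA and 11.75 in control cells on its brightest probe set. The vector array was again the highest, and the difference from control was 0.80 (1.75-fold). Its other bright probe sets differed by 0.83 and 0.90, while the fourth was dim on all arrays and differed by 0.087. With a pooled SD of 0.36 between probe sets, the bright probe sets of BST2 lay within that spread of each other.

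RSAD2 had signals of 8.54 in vector, 3.24 in siRNA and 2.73 in control cells on its brightest probe set. The siRNA and control signals were dim, so the gene had a clear signal on the vector array only. The difference from control was 5.81, and the vector signal lay 4.82 above the lower quartile of the control array. The other probe set had 6.62 in vector, 3.33 in siRNA and 3.74 in control cells, a difference of 2.88. Both probe sets place the vector array highest, but their sizes differ, with an SD of 2.07 between them against the pooled 0.36.

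TRIM5 had signals of 8.73 in vector, 7.98 in siRNA and 7.48 in control cells on its brightest probe set. Here the siRNA array lay between the others, and vector minus control was 1.25 (2.37-fold). A second probe set, at 4.62 in vector, 4.24 in siRNA and 4.49 in control cells, differed by 0.13, and the remaining one, dim in siRNA and control cells, by 0.47. The TRIM5 value past 2-fold thus rests on 1 of its 3 probe sets.

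TRIM22, in the same cluster of TRIM genes on chromosome 11 as TRIM5, had probe sets that went different ways. Its brightest one by mean signal had 5.32 in vector, 5.08 in siRNA and 5.55 in control cells and was the only probe set of the 30 without its highest signal on the vector array. The next had 7.62 in vector, 3.74 in siRNA and 3.95 in control cells, a difference from control of 3.67, and another had 7.12, 3.22 and 3.13, a difference of 3.99. Altogether 4 of the 6 were past 2-fold above control in vector cells, by 1.72 to 3.99, and the SD over the 6 was 1.64. Picking the brightest probe set, at -0.23, therefore gives a value for TRIM22 that most of its probe sets do not share, and the mean over all 6 was 2.13. The sign of the brightest one turned after cyclic loess (0.083). Which transcripts each probe set covers was not analysed here.

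XAF1 had 6.63 in vector, 3.93 in siRNA and 3.83 in control cells on its brightest probe set, none of these dim. It was high on the vector array alone, with a difference from control of 2.81. In all, 4 of its 7 probe sets passed 2-fold, by 2.28 to 2.81. Of the other 3, 2 were dim on all arrays, and 1 had 5.11 in vector and 4.52 in both siRNA and control cells.

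**Figure D3:**
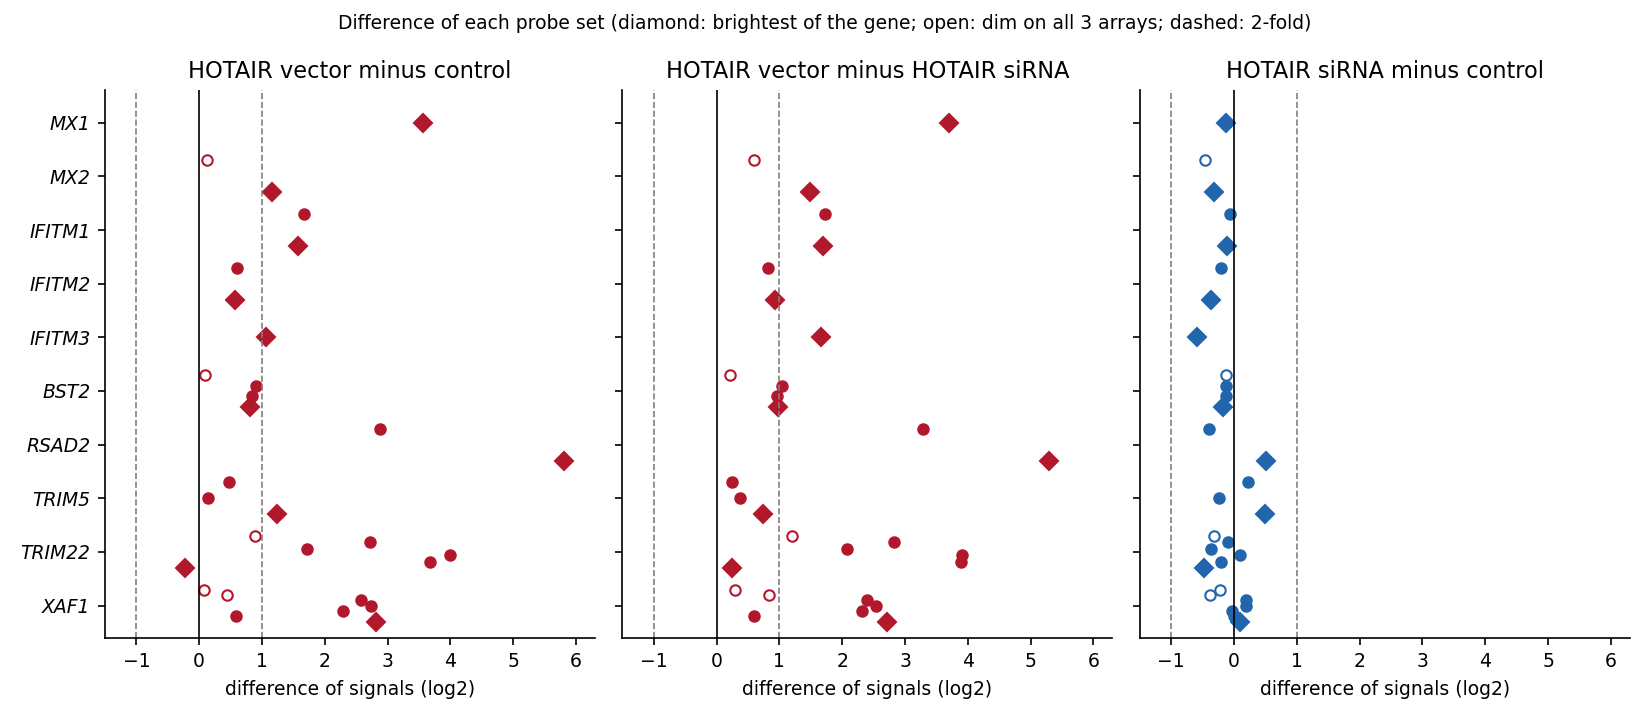
Log2 difference of every probe set by gene for vector minus control, vector minus siRNA and siRNA minus control, with the brightest probe set as a diamond and open symbols for probe sets dim on all 3 arrays. In vector minus control 16 of 30 points lie past the 2-fold line and in vector minus siRNA 17, while in siRNA minus control 0 do.

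The dim probe sets bear on these counts. Of the 16 probe sets past 2-fold in vector minus control, 7 had no dim signal on any array, and 8 were dim in control and not in vector cells. Of the 15 probe sets with no dim signal at all, 7 were at least 2-fold higher, and of the 5 dim on all 3 arrays 0 were. In vector minus siRNA 1 of those 5 passed 2-fold, a TRIM22 probe set at 1.20. The sizes for RSAD2, XAF1, TRIM22 and MX2 are therefore less certain than those for MX1 and the IFITM genes.

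The second comparison set HOTAIR siRNA cells against control cells. In siRNA cells 0 of the 30 probe sets were 2-fold apart from control in either direction, against 9.34% higher and 1.12% lower among all probe sets. Only 15 of the 30 were dim on no array. Most of the rest were dim in both siRNA and control cells, where a small difference says little. Of the 7 kept genes 0 passed 2-fold, which for so few genes is near the 14.9% and 1.85% of all kept genes. Their median of -0.18 lay at that of all kept genes (-0.17). IFITM3 was furthest down at -0.60, with signals of 9.73 in siRNA and 10.32 in control cells, and IFITM2 and BST2 were at -0.36 and -0.18. MX1 (-0.13) and IFITM1 (-0.12) differed by less than the SD of 0.39 between probe sets, and their sign turned when each comparison was centred on its median gene (0.04 and 0.05). TRIM5 was the highest of the 7 at 0.50. RSAD2 was at 0.51 on its brightest probe set and -0.41 on the other, with both siRNA signals dim, so its order against control is not read. XAF1 ranged from -0.38 to 0.20 over its 7 probe sets, most of which were dim in both siRNA and control cells.

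The third comparison set HOTAIR vector cells against HOTAIR siRNA cells, without the control array. All 30 probe sets, from 10 genes, were higher in vector cells, where the median difference over all probe sets was -0.0014. At least 2-fold higher were 17 of the 30, with 0 lower, against 1.18% higher and 1.05% lower among all probe sets. Of the 7 kept genes 3 were at least 2-fold higher, MX1 (3.70), IFITM1 (1.69) and IFITM3 (1.66), and 0 lower, against 1.73% and 1.85% of all kept genes. Their median was 0.98, against 0.01 over all kept genes. Without the filter 6 of the 10 passed, with RSAD2 (5.30), XAF1 (2.71) and MX2 (1.48) added, against 1.37% of all genes. MX1 had the 8th highest difference of the 10917 kept genes, IFITM1 the 58th and IFITM3 the 63rd. BST2 and IFITM2 lay just under the threshold at 0.98 and 0.93, and BST2 passed it on 1 of its probe sets (1.04). TRIM5, past 2-fold against control, was at 0.75 against siRNA cells. For TRIM22 5 of 6 probe sets were at least 2-fold higher in vector cells, by 1.20 to 3.91, and the brightest was at 0.24.

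**Figure D4:**
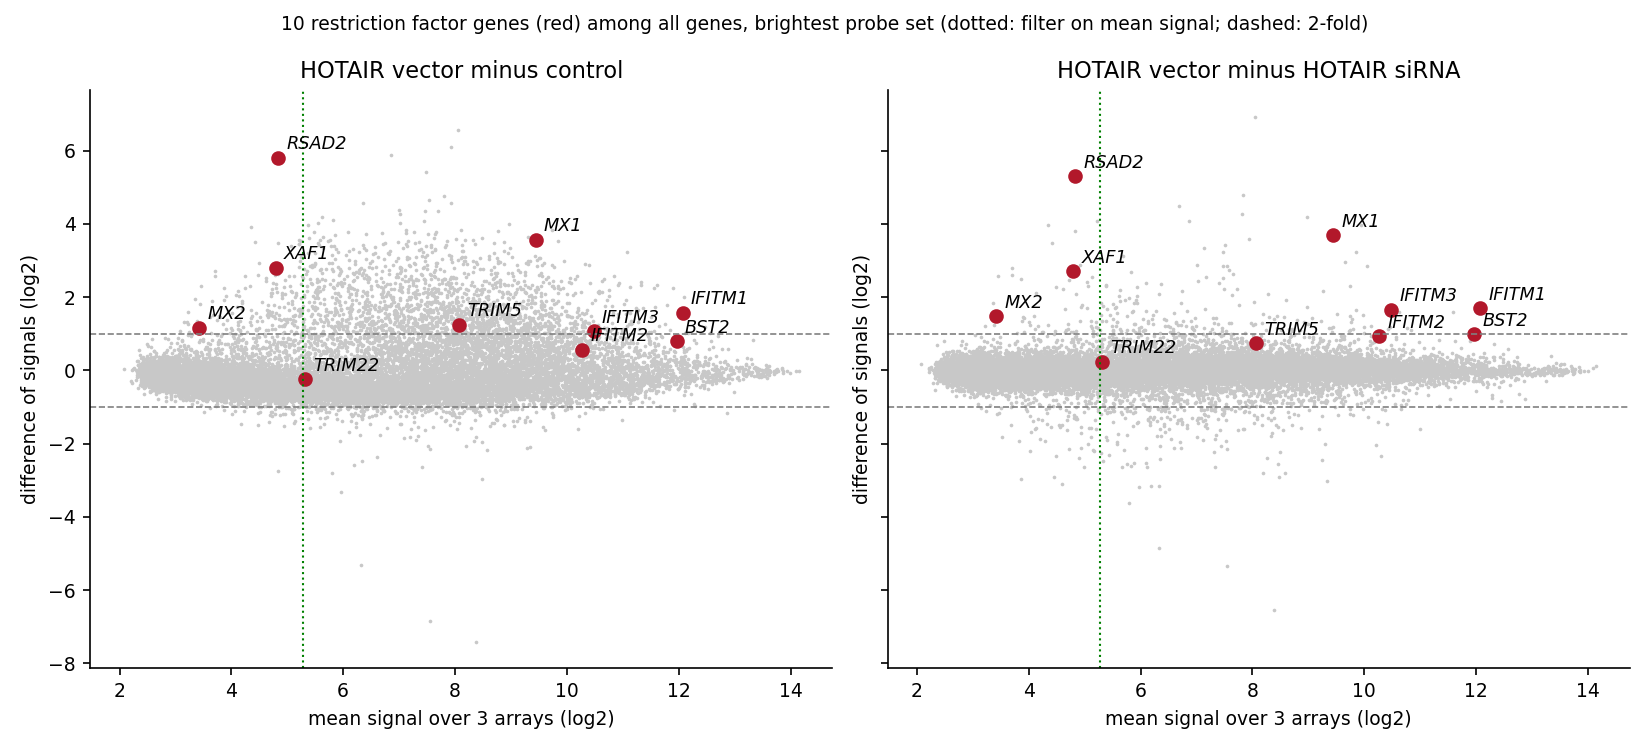
Difference against mean signal (both log2) for all 18132 genes in grey, by brightest probe set, with the 10 restriction factor genes in red, for vector minus control and vector minus siRNA. The grey cloud is wider against control (SD 0.92 over kept genes) than against siRNA (0.45), and MX1, RSAD2 and XAF1 lie near its upper edge or beyond it in both.

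The genes differed among themselves in size more than in direction. In vector minus siRNA the order of the brightest probe sets ran from RSAD2 (5.30) and MX1 (3.70) through XAF1 (2.71), IFITM1 (1.69), IFITM3 (1.66), MX2 (1.48), BST2 (0.98), IFITM2 (0.93) and TRIM5 (0.75) to TRIM22 (0.24). IFITM1 and IFITM3 were not apart by more than the SD of 0.21 between probe sets, nor were MX2 and IFITM3, or BST2 and IFITM2. MX2 is below the filter, and its own probe sets had a larger SD of 0.62 here. Genes with a low signal outside vector cells (RSAD2, XAF1, most TRIM22 probe sets) and genes bright on every array (IFITM1, IFITM3, BST2) were both among those higher in vector cells. IFITM2, at 0.93, was further than that SD from both IFITM1 and IFITM3.

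Next to these genes on the chromosome, 14 genes that are not among the 10 were measured as nearest neighbours, of which 3 were kept. CMPK2, a mitochondrial nucleotide kinase gene that lies beside RSAD2, had signals of 9.50 in vector, 6.14 in siRNA and 5.74 in control cells. It was high on the vector array like RSAD2, by 3.76 against control and 3.36 against siRNA cells, or by 1.30 and 1.42 with the mean over its probe sets. It was the single neighbour of the 14 at least 2-fold higher in either comparison. This count is near the share of all genes in vector minus control (10.1%), and that share was 1.37% in vector minus siRNA. TMPRSS2, beside MX1 and known for the cleavage of viral glycoproteins, had 4.50 in vector, 4.34 in siRNA and 4.69 in control cells. TRIM6, beside TRIM5, had 5.11, 4.81 and 5.26 in the same order, and TRIM34, beside TRIM22, was dim on all 3 arrays. MVB12A, beside BST2, was lower than control in siRNA cells by 1.12 (5.96 in siRNA and 7.08 in control cells) and at -0.84 in vector cells. Among all kept genes 1.85% were at least 2-fold lower in siRNA minus control.

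Restriction factors outside the 10 were looked at through a list of 40 genes, of which 39 were measured and 30 kept. The list was chosen with earlier results of these data known, so its counts are a description and no independent support. It includes CMPK2, already counted as a neighbour. Past 2-fold in vector minus control were 12 of the 30, all upward (15.2% higher and 2.05% lower among all kept genes), and the median was 0.45 against -0.18. In vector minus siRNA 11 were higher and 0 lower (1.73% and 1.85%), with a median of 0.83 against 0.01, and in siRNA minus control 2 were higher and 0 lower (14.9% and 1.85%). Of the kept genes, those furthest apart were CMPK2, the ISG15 ligase gene HERC5 and its relative HERC6. HERC5 was higher in vector cells by 3.31 against control and 2.63 against siRNA cells. HERC6 had 9.68 in vector, 6.46 in siRNA and 6.29 in control cells. GBP5, below the filter, was as far apart, with 6.75 in vector cells and dim signals in siRNA (3.28) and control cells (3.24). The DNA sensor gene IFI16 had 10.89 in vector, 9.34 in siRNA and 8.29 in control cells. It was higher than control by 2.60 in vector and 1.05 in siRNA cells. EIF2AK2, which encodes the double-stranded RNA-activated kinase PKR, had 10.89 in vector, 9.40 in siRNA and 8.96 in control cells. SAMHD1, which depletes nucleotides needed by retroviruses, had 7.90, 6.55 and 6.28, and SLFN5 7.13, 5.14 and 5.12, both high on the vector array alone. The siRNA and control signals of SLFN5 lay below the filter level, so SLFN5 was kept only through its vector signal. It is counted among the 12 genes higher in vector minus control and the 11 higher in vector minus siRNA. NCOA7, which has an interferon-induced form that hinders viral entry, was higher than control by 2.21 in vector and 1.33 in siRNA cells, though by 0.96 and 0.45 when its probe sets were averaged. Averaging left 10 of the 30 past 2-fold in vector minus control, 9 in vector minus siRNA and 1 in siRNA minus control, and SAMHD1 was at 1.00 against control and 0.95 against siRNA cells.

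Members of the same families did not all differ in this way. Of the APOBEC3 genes, cytidine deaminases that mutate viral DNA, the 6 measured had differences between -0.85 (APOBEC3C) and 0.31 (APOBEC3B) in vector minus control. None reached 2-fold in any comparison, though APOBEC3B was at 0.89 in vector minus siRNA. For 6 genes this is near the shares of all kept genes higher, 15.2% in vector minus control, 14.9% in siRNA minus control and 1.73% in vector minus siRNA. Among other TRIM genes, TRIM38 was higher than control in vector cells by 1.21 and TRIM14 higher than siRNA cells by 1.15, but averaging their probe sets put both under 2-fold (0.93 and 0.65). TRIM25, which activates the RNA sensor RIG-I, was at 0.12 and 0.25 and TRIM56 at 0.30 and 0.25 in these comparisons. LY6E, SERINC5 and MOV10 were below control in vector cells by less than 2-fold, at -0.31, -0.31 and -0.45. In vector minus siRNA they were at 0.38, -0.07 and 0.03.

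**Figure D5:**
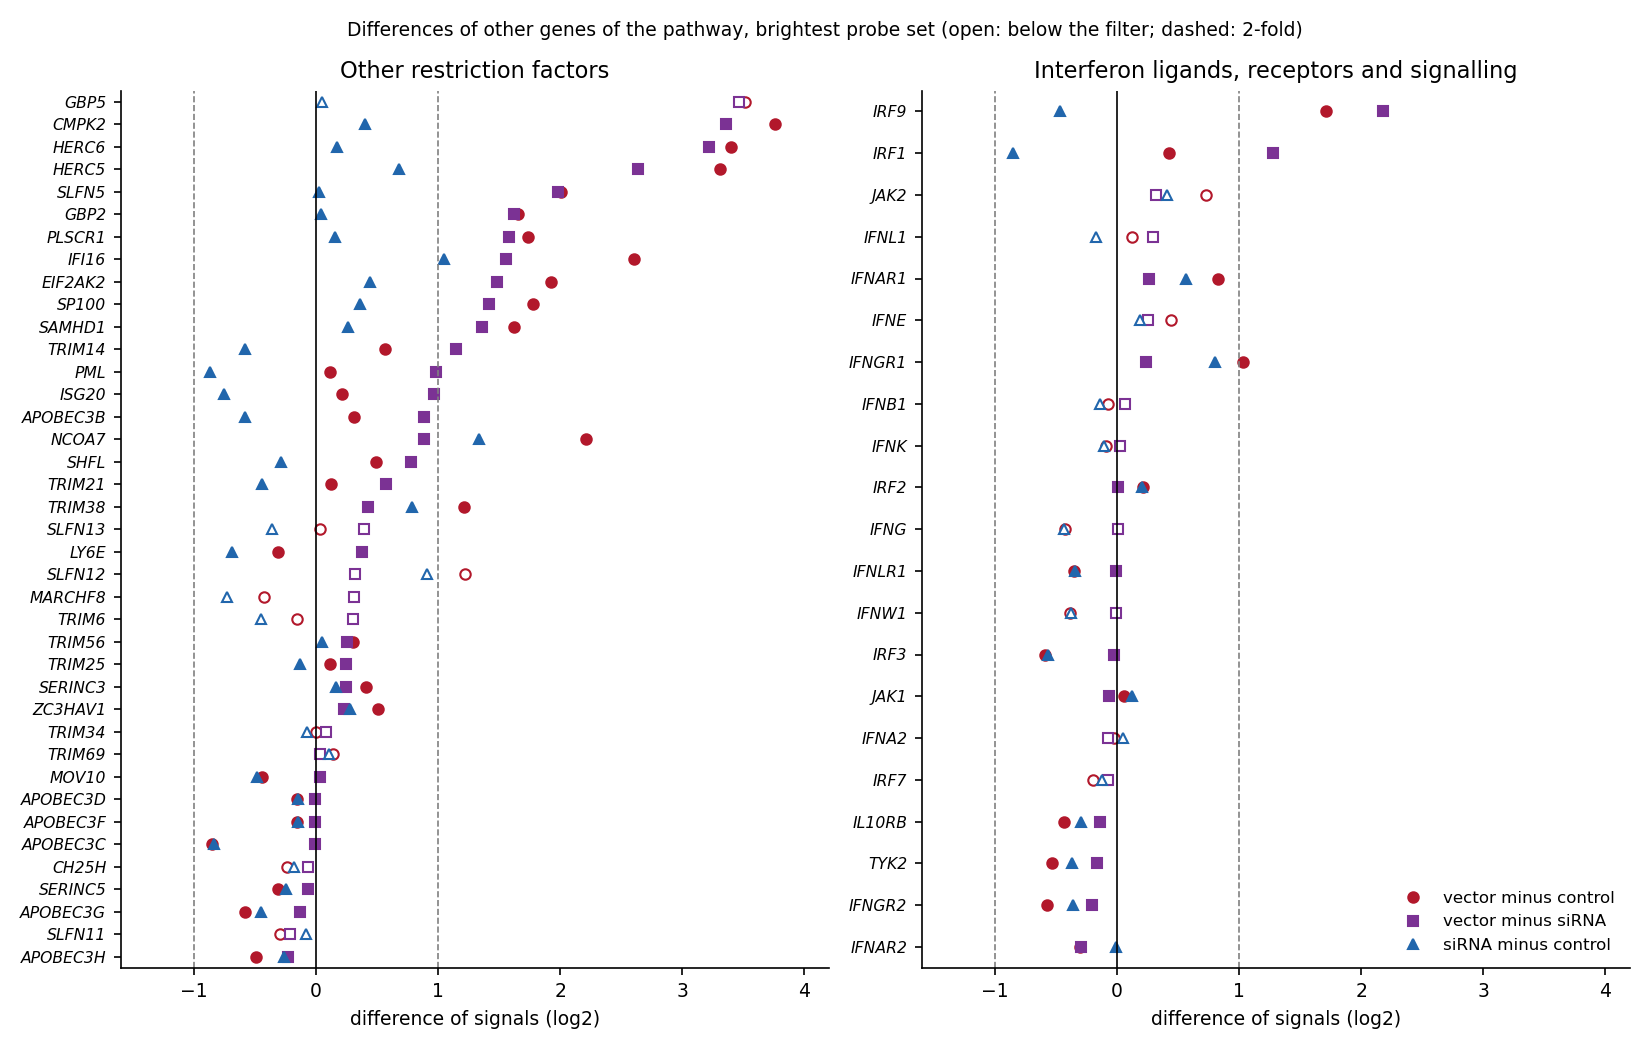
Log2 differences by brightest probe set of 39 other restriction factors and 21 interferon ligand, receptor and signalling genes, for vector minus control (circles), vector minus siRNA (squares) and siRNA minus control (triangles), with open symbols below the filter. In vector minus control, 12 kept genes on the left and 2 on the right lie past the 2-fold line, while IFNB1 and IFNL1 lie near 0.

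The genes that carry the interferon signal were a list of 26, with 21 measured and 12 kept. In vector minus control 2 of the 12 passed 2-fold upward and 0 downward, close to the 15.2% and 2.05% of all kept genes, and the median was -0.12 against -0.18. In vector minus siRNA 2 were higher and 0 lower (1.73% and 1.85% of all kept genes), with a median of -0.02 against 0.01. In siRNA minus control 0 passed in either direction (14.9% and 1.85%). With the mean over probe sets the counts of higher genes were 3 in vector minus control and 1 in vector minus siRNA. IRF9, the DNA-binding subunit of the complex that binds the ISRE, had 10.56 in vector, 8.38 in siRNA and 8.85 in control cells, and was higher in vector cells by 1.71 against control and 2.18 against siRNA cells. IRF1 had 6.45, 5.17 and 6.02, a difference of 1.28 from siRNA cells and 0.43 from control, or 0.74 and 0.21 with the mean over probe sets, under 2-fold. The receptor gene IFNGR1 was higher than control by 1.04 in vector and 0.80 in siRNA cells, and IFNAR1 by 0.83 and 0.57. The interferon beta gene IFNB1 was dim on all 3 arrays, at 3.27 in vector, 3.21 in siRNA and 3.35 in control cells, and IFNL1 had 3.83, 3.54 and 3.71.

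Of 8 feedback inhibitors of interferon signalling, 7 were measured and 5 kept, with 0 at least 2-fold apart in vector minus control or vector minus siRNA and 1 higher in siRNA minus control, the phosphatase gene PTPN11 (1.08, and 0.92 in vector minus control). With 15.2%, 1.73% and 14.9% of all kept genes higher in vector minus control, vector minus siRNA and siRNA minus control, these counts are near the background. PTPN11 was at 0.31 and 0.27 with the mean over its 4 probe sets, under 2-fold. SOCS1, below the filter, had 4.65 in vector, 4.61 in siRNA and 5.67 in control cells. Of 12 genes for proteins that work with the restriction factors, 9 were measured and 8 kept. XIAP, the partner of XAF1, had 8.89 in vector, 8.96 in siRNA and 7.20 in control cells. It was higher than control by 1.69 in vector and 1.76 in siRNA cells, and not apart in vector minus siRNA (-0.08). BIRC2, a relative of XIAP, was higher than control by 2.43 and 2.17. These were the 2 of 8 higher in each comparison with control (15.2% of all kept genes in vector and 14.9% in siRNA cells), and 0 passed in vector minus siRNA (1.73%). CASP9 was the 1 lower in siRNA minus control (-1.11, against 1.85% of all kept genes), and averaging its probe sets put it under 2-fold (-0.85). PPIA (cyclophilin A), which binds retroviral capsids, was level on its brightest probe set, at 13.62 in vector, 13.63 in siRNA and 13.60 in control cells.

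Genes whose pattern was most like that of the kept restriction factors were sought by the distance between centred signals over the 3 arrays, against the median centred signals of the 7 (0.66 in vector, -0.43 in siRNA and -0.21 in control cells). Out of 10910 other kept genes the nearest were the sodium channel subunit gene SCNN1A (distance 0.069), RHEBL1 (0.080), the transcription factor gene KLF4 (0.084), TXNIP (0.099) and FBXO2 (0.10). KLF4, for example, had 9.36 in vector, 8.22 in siRNA and 8.37 in control cells. With 3 arrays such a likeness rests on 2 free values per gene and describes these arrays only.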

How the data were processed

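Biotin-labelled total RNA of 3 samples was profiled on expression arrays, per the labels' protocols. The deposited log2 values are RMA probe set signals, per the submitters' processing notes; the RMA version and its settings are not stated in the labels, and the log2 scale was read from the range of the values. A table of platform annotation gave 1 symbol for 44988 of 49293 probe sets, and all 10 gene symbols matched RefSeq by Entrez identifier. Differences were taken between arrays per probe set and per gene (brightest probe set), and genes past 2-fold were counted by direction. Groups came from the treatment labels, and with 1 array each no test was made. The genes and gene lists were chosen with earlier results of these data known. Lists held other restriction factors, interferon signalling, its feedback inhibitors, and partner proteins. The rule for named genes took the 10, list members past 2-fold (up to 8 examples) or else the 2 most different, neighbours on each side, and the 5 most alike genes. PPIA, KRT13, the APOBEC3 genes, IFNB1, IFNL1 and other list members under 2-fold were named after their values were seen. SAMHD1, TRIM38 and TRIM14 were also named outside the rule, while SP100, PLSCR1 and GBP2, which differed by more, were not described. The planned protein identities were not computed. Promoter matches used RefSeq sequences of GRCh38.p14. Steps were tested on simulated data. Alternatives were other fold thresholds, filters, probe set rules and scalings (quantile, cyclic loess with span 0.4 and 3 cycles) and centring. Python 3.11.15, numpy 2.4.6, pandas 2.3.3, biopython 1.88 (alignment), matplotlib 3.10.9, R 4.3.3 and limma 3.58.1 (scaling only) were used.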

Additional observations from a re-analysis of the deposited data

How the results depend on the processing

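The precision is limited by 1 array per group, and dim signals limit the sizes for RSAD2, XAF1, TRIM22 and MX2. No paired analysis was possible because each group has a single array. At 1.5-fold, 6 of 7 kept genes were higher in vector than in siRNA cells (4.74% of all kept genes) and 1 was lower in siRNA than in control cells (18.0%). At 4-fold, 1 was higher in vector cells against control (5.24%) and 1 against siRNA cells (0.38%). Without a filter, 7 of 10 were higher in vector minus control and 6 in vector minus siRNA, with a median of 1.57 in vector minus siRNA. That median was 1.32 with the filter at the 75th percentile, 1.27 when probe sets of a gene were averaged, and 1.36 when those ending in _x_at or _s_at were left out. That last setting drops IFITM2 and IFITM3 altogether, leaves 4 kept genes and gave 2 higher in vector minus control. The numbers of members past 2-fold were the same as deposited after quantile normalization, cyclic loess and centring. Of the single-gene values, 128 moved by less than the SD between probe sets and 16 by more, 11 of these by averaging probe sets and 5 by leaving out those endings. Among these, vector minus control was 0.62 and 0.47 for TRIM5, 0.65 for MX2 and 2.13 for TRIM22, and RSAD2 was at 4.35 and 2.88. Quantile normalization gave 1444 kept genes higher and 518 lower in vector minus control (73.6% higher), against 1662 and 224 (88.1%) as deposited, and 78.3% against 88.9% in siRNA minus control. The median of all kept genes was -0.03 after cyclic loess, against -0.18 as deposited, in vector minus control, and 0.02 against -0.17 in siRNA minus control. Signs turned for values under 2-fold: MX1 (0.04) and IFITM1 (0.05) with centring, XAF1 (-0.02) with averaged probe sets and RSAD2 (-0.41) without _x_at in siRNA minus control, and TRIM22 in vector minus control with averaged probe sets (2.13) and cyclic loess (0.083).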
